A study of Mus musculus with 9 samples.

Results

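The miR-30 family was followed as 11 mature arms, the 5p arms miR-30a-5p, miR-30b-5p, miR-30c-5p, miR-30d-5p and miR-30e-5p and the 6 3p arms cut from the same hairpins, out of 415 named miRNA 5′ ends in the study. The members were taken by name, with earlier results of these data known, and the reads of the copies of miR-30c-5p, which come from the hairpins Mir30c-1 and Mir30c-2, were merged. The data are 9 mouse small RNA-seq libraries. Of these, 7 were made from MIN6, an insulinoma cell line used as a model of the pancreatic beta cell and cultured here at 25 mM glucose: 3 with the Illumina TruSeq protocol, 3 with the older Illumina v1.5 protocol (called V1.5) and 1 with the Bioo Scientific NEXTflex V2 protocol. The other 2 were made from the same liver RNA of 1 female C57BL/6J mouse, 1 with TruSeq and 1 with NEXTflex. That mouse was 9 weeks old at purchase, had 10 days of acclimation, received saline through the tail vein and was killed 7 days later after an overnight fast. The Illumina protocols join adapters of fixed sequence to the ends of each RNA, whereas the NEXTflex adapters end in random bases where they meet the RNA. The question that the family can address is how much of a measured miRNA level comes from the library protocol, and whether miR-30e-5p, which the study used as the reference for its RT-qPCR, keeps its level between protocols.

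A miRNA is cut from a hairpin precursor as a duplex of a 5p and a 3p strand, and 1 strand is usually kept in the silencing complex while the other is lost. Bases 2 to 8 of the kept strand, the seed, pair with target mRNAs, so that miRNAs sharing a seed share most of their predicted targets. The miR-30 family is abundant in epithelial and secretory tissues. In beta cells miR-30d has been linked to insulin gene transcription, and in liver miR-30c has been linked to lipoprotein assembly. Members of such a family differ in only a few bases outside the seed, which makes them a natural test of how a protocol treats near-identical RNAs.

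RefSeq mature sequences (build GRCm38.p6) were matched for 7 of the 11 arms, not for the arms of miR-30b and miR-30d. They are printed 5′ to 3′ with the seed in capitals, to show how little the members differ and which bases form their 3′ ends.
miR-30a-5p: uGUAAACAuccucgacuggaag
miR-30c-5p: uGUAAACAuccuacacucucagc
miR-30e-5p: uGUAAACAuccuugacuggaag
miR-30a-3p: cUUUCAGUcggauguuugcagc
miR-30e-3p: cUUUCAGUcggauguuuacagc
miR-30c-1-3p: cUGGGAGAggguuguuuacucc
miR-30c-2-3p: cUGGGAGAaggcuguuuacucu
The 5p arms printed here share the seed GUAAACA, which 4 of the 1679 RefSeq mature sequences searched carry, the other being miR-384-5p. miR-30b-5p and miR-30d-5p, for which no entry was matched, are not in that count. Counted from 1 at the 5′ end of miR-30a-5p, miR-30e-5p differs from it by C13U and by nothing else. The 3p arms fall into a pair with the seed UUUCAGU, in which miR-30e-3p differs from miR-30a-3p by G18A, and a pair with the seed UGGGAGA, in which miR-30c-2-3p differs from miR-30c-1-3p by G9A, U12C and C22U. The 5p arms printed here start with U and the 3p arms with C.

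The 6 hairpins sit in 3 pairs in the GENCODE annotation of GRCm38. Mir30a lies at chr1:23272269-23272339 on the plus strand in no other annotated gene, and 19361 nt downstream Mir30c-2 lies at chr1:23291701-23291784 in an exon of the lincRNA Gm27028. Mir30e at chr4:120772606-120772697 and Mir30c-1 at chr4:120769534-120769622 are on the minus strand, 2983 nt apart, in introns of Nfyc, which encodes a subunit of the transcription factor NF-Y. Mir30d at chr15:68341208-68341289 and Mir30b at chr15:68337415-68337510 are on the minus strand, 3697 nt apart. Mir30d overlaps an exon of the lincRNA Gm20732, and Mir30b is in no other annotated gene.

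Deposited counts summed to between 6923460 and 25638872 per library, and levels are given as reads per 1000000 mapped reads (RPMM) starting exactly at the reference 5′ end. All mature miRNAs are of nearly the same length, so that levels of different miRNAs were set side by side without scaling by length. The paper reports that protocols capture miRNAs unequally and advises against reading such levels as absolute. An order of members within a library is therefore an order of reads. The 3 reads taken as the floor of detection, which cover counting error only since PCR copies are not independent molecules, correspond to 0.117 RPMM in the NEXTflex MIN6 library and 0.209 RPMM in the NEXTflex liver library. The TruSeq and V1.5 MIN6 libraries were sequenced on the same instrument type, at the same facility and on the same date. The NEXTflex MIN6 library differs from them in RNA, instrument, facility and date, and these cannot be told apart from the protocol. The labelled tissues were checked against marker miRNAs. All 5 beta cell markers were higher in every MIN6 library than in either liver library, miR-375-3p at 64950 to 186331 against 26.7 to 39.97 RPMM. Of the 4 hepatocyte markers, miR-122-5p, miR-192-5p and miR-194-5p were higher in both liver libraries than in any MIN6 library, while miR-802-5p overlapped, at 504 to 858 in liver and 38.0 to 628 RPMM in MIN6. The endothelial markers miR-126-3p and miR-126-5p were also higher in liver, with miR-126-3p at 463 to 1884 against 11.4 to 208 RPMM. The 4 blood cell markers of the list were not among the named 5′ ends.

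The 5p arms together made up 3.35% to 3.81% of mapped reads in the TruSeq MIN6 libraries, 3.11% to 3.20% in the V1.5 libraries and 2.93% in the NEXTflex MIN6 library. In liver they made up 4.75% with TruSeq and 2.33% with NEXTflex, from the same RNA. The 3p arms together never exceeded 0.0792% of mapped reads. In MIN6 the family sum moved by 1.24-fold between the highest and the lowest protocol mean, less than miR-30a-5p, miR-30b-5p, miR-30d-5p or miR-30e-5p did on its own. Within that sum, however, the shares of the members depended on the protocol, as the plot of the make-up of the 5p reads shows.

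**Figure D1:**
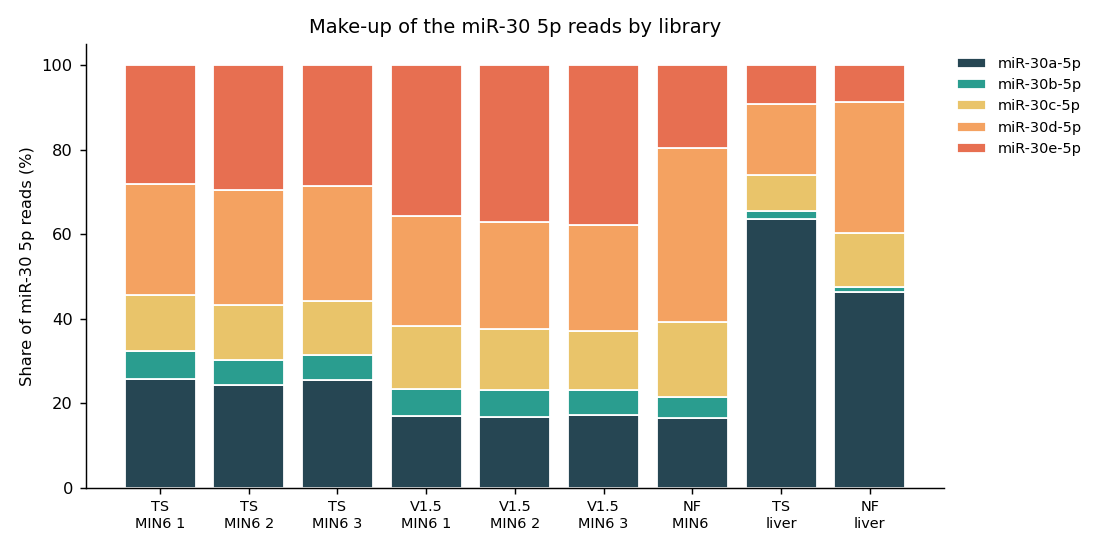
Stacked bars give, for each of the 9 libraries on the x axis (TS, TruSeq; NF, NEXTflex), the share in percent of the reads of each miR-30 5p arm among all miR-30 5p reads. miR-30e-5p makes up 35.7% to 37.9% of the bar in the V1.5 libraries and 19.5% in the NEXTflex MIN6 library, and miR-30a-5p is the main part of both liver bars.

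miR-30a-5p, the member with the most reads in both liver libraries, was at 8577, 9045 and 9721 RPMM in the TruSeq libraries of MIN6. In the V1.5 libraries it was at 5261, 5339 and 5525 RPMM. The groups did not overlap. The log2 change from TruSeq to V1.5 was -0.76 ± 0.05 (SE; edgeR adjusted p = 1.00e-07). The edgeR quasi-likelihood test was run over 351 named 5′ ends, and its p-values were adjusted over all of them by the method of Benjamini and Hochberg. NEXTflex gave 4850 RPMM, below all 6 Illumina libraries.

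miR-30e-5p differs from miR-30a-5p by a single base and did not follow it. It was at 9394, 11039 and 10900 RPMM with TruSeq and at 11090, 11744 and 12132 RPMM with V1.5. The V1.5 libraries were all above the TruSeq libraries, but the lowest of them was above the highest TruSeq library by less than the spread of either group. The log2 change was 0.16 ± 0.07 (SE; edgeR adjusted p = 0.0395). Scaled by edgeR's TMM factors it fell by 0.39 on the log2 scale (adjusted p = 0.000119), scaled by DESeq2's size factors it fell by 0.48 (adjusted p = 3.34e-05), and scaled by the reads on named miRNAs the change was 0.02 (adjusted p = 0.672). Without TruSeq library 1 the change was 0.09 (edgeR adjusted p = 0.138), and the call was also lost without V1.5 library 2 (0.15, adjusted p = 0.0797) or V1.5 library 3 (0.13, adjusted p = 0.116). No direction between TruSeq and V1.5 is therefore given for miR-30e-5p.

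The 3 other 5p arms had smaller changes between the Illumina protocols than miR-30a-5p. miR-30b-5p was at 2272, 2222 and 2275 RPMM with TruSeq and at 1990, 1970 and 1914 RPMM with V1.5 (log2 change -0.20 ± 0.04, edgeR adjusted p = 0.000681). miR-30d-5p was at 8833, 10135 and 10399 RPMM with TruSeq and at 8124, 8082 and 8003 RPMM with V1.5 (log2 change -0.28 ± 0.06, edgeR adjusted p = 0.00112). Neither pair of groups overlapped. miR-30c-5p was at 4411, 4858 and 4827 RPMM with TruSeq and at 4627, 4572 and 4434 RPMM with V1.5, so that the groups overlapped, and its log2 change of -0.05 ± 0.05 did not pass the test (edgeR adjusted p = 0.358). With the TMM factors it fell by 0.60 on the log2 scale and passed (adjusted p = 8.51e-07), and with DESeq2's size factors it fell by 0.68 (adjusted p = 2.73e-07).

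**Figure D2:**
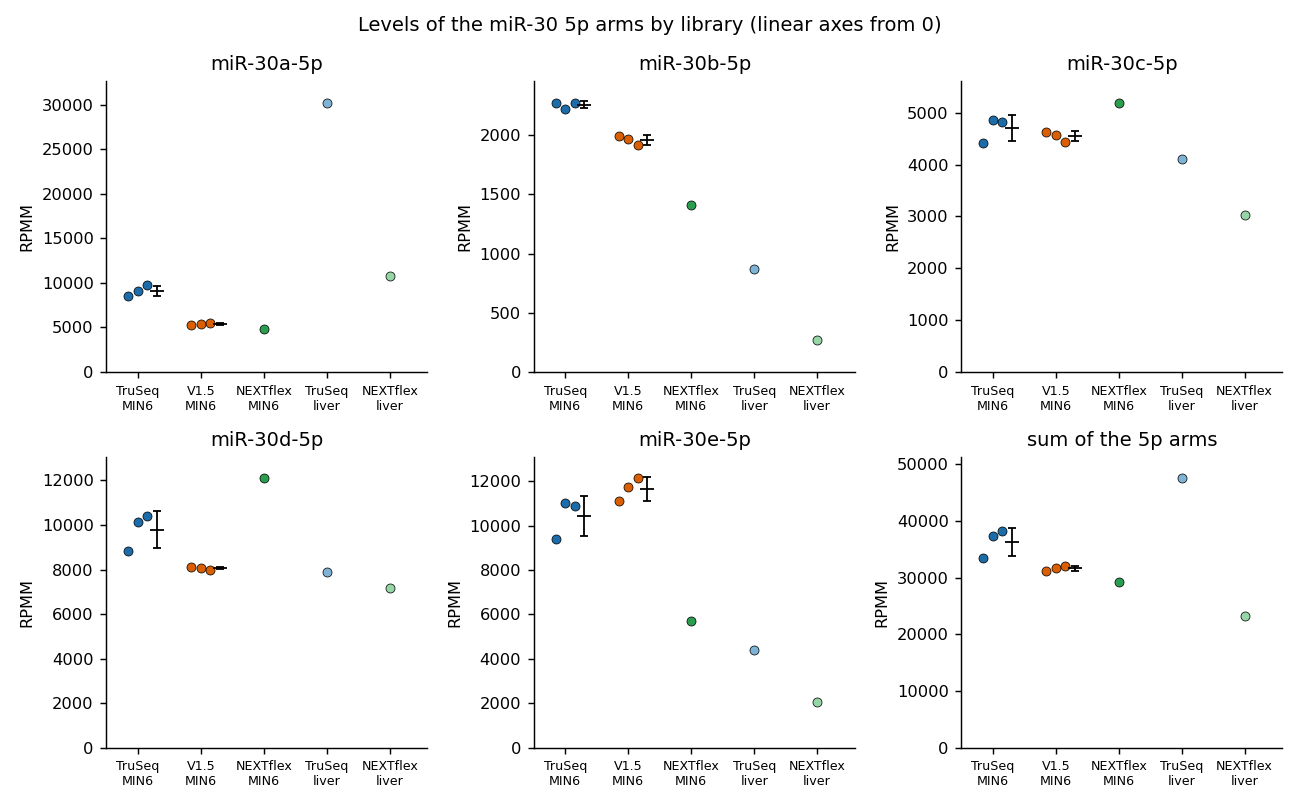
Each panel shows the level in RPMM (linear y axis from 0) of a miR-30 5p arm, or of their sum, in the 9 libraries grouped by protocol and tissue; points are libraries, and for groups of 3 the bar gives the mean ± SD. miR-30b-5p and miR-30e-5p are lowest in the NEXTflex liver library, miR-30c-5p and miR-30d-5p have their highest point in the NEXTflex MIN6 library, and miR-30a-5p peaks at 30218 RPMM in the TruSeq liver library.

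The changes of the 5p arms were next set beside those of all named miRNAs, most of which passed the test. Of the 351 named 5′ ends of at least 100 RPMM in a MIN6 library, 326 (92.9%) passed between V1.5 and TruSeq, 199 higher in V1.5 (56.7%) and 127 lower (36.2%). The groups did not overlap for 92.3% of the 351. Of the 8 miR-30 arms among them, 3 were called higher, miR-30e-5p included, 4 were called lower, and miR-30c-5p was not called. Of the 8, miR-30d-3p reached 100 RPMM only with TruSeq, where it is higher, so that it entered the test through its difference. miR-30a-3p reached it with V1.5, where it is higher, and in the NEXTflex library, but not with TruSeq. The count of called arms therefore supports nothing. The median log2 change was 0.73 over the 351 and -0.20 over the 5p arms, and the median size of the change regardless of direction was 1.60 over the 351 and 0.20 over the 5p arms. The scaling moved the median over all 351: it was 0.18 with TMM factors, which called 171 higher and 160 lower, and 0.09 with DESeq2's size factors, which called 163 higher and 165 lower. The median over the 5p arms moved with it, to -0.76 with TMM factors and -0.84 with DESeq2's size factors. Regardless of direction, the median size was then 0.76 over the 5p arms against 1.45 over the 351 with TMM factors, and 0.84 against 1.47 with DESeq2's size factors, so that the gap between them was narrower than with mapped reads. Relative to the median of 0.73, each of the 5p arms lay below the typical miRNA in the V1.5 libraries, miR-30e-5p included.

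The 3p arms are usually treated as the strands that are lost, and they were far less abundant than their partners. Per mapped read, however, they moved more than their partners between V1.5 and TruSeq. The median size of the 5p changes grew from 0.20 with mapped reads to 0.76 with TMM factors and 0.84 with DESeq2's size factors. Whether each 3p arm still moved more than its partner on those scales was not tested. miR-30e-3p was at 144, 158 and 173 RPMM with TruSeq and at 408, 426 and 472 RPMM with V1.5, a log2 change of 1.46 ± 0.08 (SE; edgeR adjusted p = 1.47e-08). miR-30a-3p, with the same seed, was at 69.3, 75.1 and 74.3 RPMM with TruSeq and at 166, 177 and 180 RPMM with V1.5, a log2 change of 1.26 ± 0.06 (edgeR adjusted p = 6.41e-09). The groups did not overlap for either arm, and the call and the direction held under every alternative scaling, filter and left-out library that was run. miR-30d-3p went the opposite way, from 126, 131 and 131 RPMM with TruSeq to 22.8, 23.04 and 26.04 RPMM with V1.5 (log2 change -2.44 ± 0.07, edgeR adjusted p = 9.44e-11).

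The 3 remaining 3p arms stayed under 100 RPMM in MIN6 and did not enter the fit as filtered. Without any filter the log2 changes of miR-30a-3p and miR-30d-3p were 1.26 (edgeR adjusted p = 6.63e-09) and -2.44 (edgeR adjusted p = 9.98e-11). miR-30b-3p was at 18.5, 25.3 and 19.9 RPMM with TruSeq and at 47.7, 45.0 and 52.7 RPMM with V1.5. miR-30c-2-3p was at 31.2, 31.4 and 32.7 RPMM with TruSeq and at 59.1, 58.1 and 57.9 RPMM with V1.5. miR-30c-1-3p, which differs from miR-30c-2-3p by 3 bases, was lower with V1.5, at 2.46, 3.69 and 3.61 RPMM against 21.8, 20.01 and 21.9 RPMM. None of these groups overlapped, and an exact two-sided permutation test of 3 libraries against 3 gave p = 0.1 for each, the smallest p it allows.

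The ratio of the 5p to the 3p reads of a hairpin does not depend on library size, and it is often read as a measure of strand choice. Across 56 hairpins whose arms both averaged at least 10 RPMM, 54 (96.4%) changed this ratio between V1.5 and TruSeq (limma on log2 ratios after adding 1 RPMM, adjusted p under 0.05), 30 upward and 24 downward, and 43 (76.8%) changed it by more than 2-fold. All 6 miR-30 hairpins passed, 4 with a lower ratio in V1.5 and 2 with a higher one, and none had overlapping groups. Mir30c-1 met the limit of 10 RPMM on its 3p arm through the TruSeq libraries alone, and with a limit of 1 RPMM, which its arms met in both protocols, its log2 change was also 2.35 (limma adjusted p = 8.13e-08). For the ratio, the merged miR-30c-5p reads were divided evenly between its hairpins.

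For Mir30a there were 125 ± 5.30 (SD, n = 3) 5p reads for each 3p read with TruSeq and 30.9 ± 0.771 with V1.5, a log2 change of -2.01 ± 0.07 (SE; limma adjusted p = 1.86e-09). For Mir30e the ratio was 66.2 ± 3.50 with TruSeq and 26.8 ± 0.989 with V1.5 (log2 change -1.30, limma adjusted p = 7.97e-08). For Mir30b it was 108 ± 18.1 against 40.6 ± 3.83 (log2 change -1.37, limma adjusted p = 3.35e-06), and for Mir30c-2 it was 74.0 ± 3.28 against 38.9 ± 0.556 (log2 change -0.90, limma adjusted p = 7.76e-07). In these 4 hairpins the 3p arm was higher relative to its partner with V1.5.

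Mir30d and Mir30c-1 showed the reverse. The ratio of Mir30d was 75.5 ± 4.92 with TruSeq and 338 ± 27.0 with V1.5 (log2 change 2.11 ± 0.09, limma adjusted p = 6.17e-09). The ratio of Mir30c-1 was 111 ± 10.2 with TruSeq and 725 ± 187 with V1.5 (log2 change 2.35 ± 0.13, limma adjusted p = 7.97e-08), and the V1.5 values rest on 31 to 44 3p reads per library. With TruSeq the ratios of the 6 hairpins thus lay between 66.2 and 125, and with V1.5 between 26.8 and 725.

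**Figure D3:**
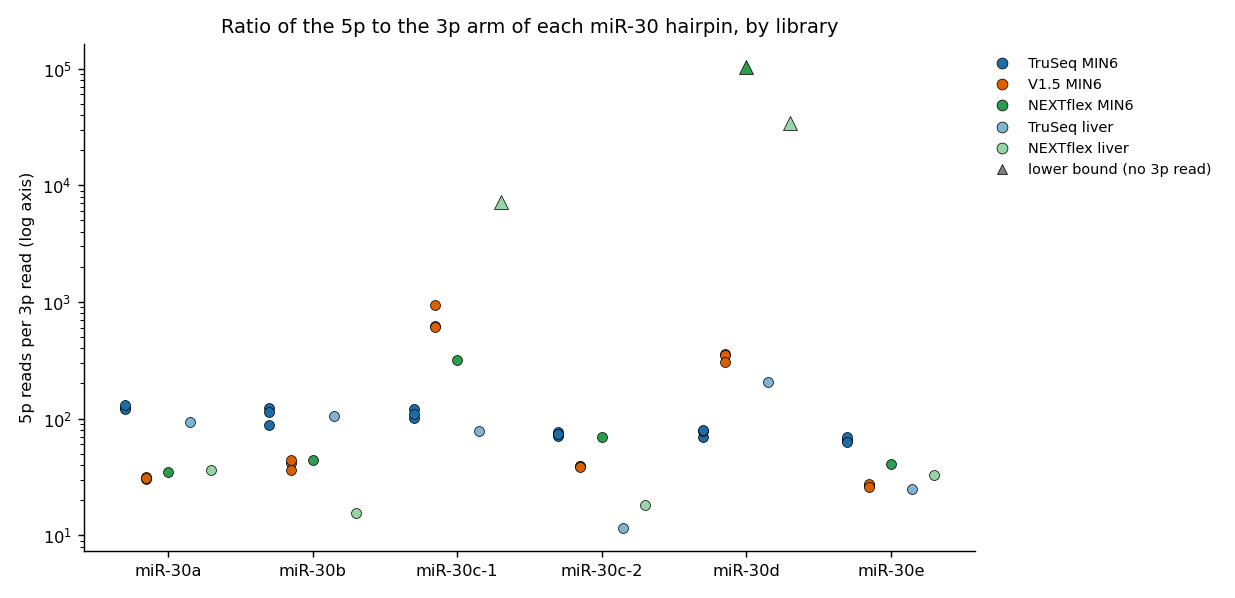
The number of 5p reads per 3p read (log y axis) is shown for each miR-30 hairpin on the x axis, with 1 point per library coloured by protocol and tissue. Triangles are lower bounds where a library held no 3p read at the reference start and 3 reads were taken instead. The V1.5 points of Mir30a, Mir30b, Mir30c-2 and Mir30e lie below the TruSeq MIN6 points, those of Mir30c-1 and Mir30d above them.

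The NEXTflex library of MIN6 has no replicate, so its values are set against the range of the other libraries and no test was made. Of 351 named 5′ ends, 72.6% differed by more than 2-fold between NEXTflex and the TruSeq mean, and none of the 5 5p arms did on the scale of mapped reads. miR-30a-5p was at 0.532 times the TruSeq mean (0.499 to 0.566 times the single libraries) and miR-30e-5p, at 5723 RPMM, at 0.548 times (0.518 to 0.609). miR-30b-5p, at 1412 RPMM, was at 0.626 times the TruSeq mean. miR-30c-5p, at 5194 RPMM, was at 1.11 times the TruSeq mean and miR-30d-5p, at 12098 RPMM, at 1.24 times, above each of the 6 Illumina libraries in both cases. With reads on named miRNAs as the library size, the log2 ratios were -1.17 for miR-30a-5p and -1.13 for miR-30e-5p, both then more than 2-fold lower, -0.94 for miR-30b-5p, -0.12 for miR-30c-5p and 0.04 for miR-30d-5p.

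Against V1.5, 73.5% of the 351 differed by more than 2-fold, and among the 5p arms miR-30e-5p did, at 0.491 times the V1.5 mean. The 5p arms therefore changed order between the protocols. In MIN6 the order with V1.5 was miR-30e-5p, miR-30d-5p, miR-30a-5p, miR-30c-5p and miR-30b-5p, with no overlap between neighbours. With TruSeq the same order held for the means, but the ranges of miR-30e-5p, miR-30d-5p and miR-30a-5p overlapped. With NEXTflex the order was miR-30d-5p, miR-30e-5p, miR-30c-5p, miR-30a-5p and miR-30b-5p, and miR-30d-5p alone made up 41.3% of the 5p reads.

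Among the 3p arms, miR-30d-3p stood apart. No read started within 5 nt of its reference start in either NEXTflex library, although the TruSeq libraries of MIN6 held 839 to 1582 reads and the V1.5 libraries 270.5 to 287 at that start. With 3 reads taken as the floor, it was at least 1104-fold higher with TruSeq than with NEXTflex in MIN6, at least 204-fold higher with V1.5 than with NEXTflex, and at least 184-fold higher with TruSeq than with NEXTflex in liver. Its partner miR-30d-5p had 309307 reads in the NEXTflex MIN6 library. miR-30a-3p was at 138 RPMM with NEXTflex, between the TruSeq and the V1.5 libraries, as were miR-30b-3p at 31.8, miR-30c-2-3p at 37.4 and miR-30c-1-3p at 8.25 RPMM. For miR-30c-1-3p this counts 211 reads at the reference start, and 284 more started 1 nt further 3′. The log2 ratio of NEXTflex to TruSeq was -1.27 at the reference start and -0.15 with all starts within 5 nt summed. miR-30e-3p was at 139 RPMM, below all 6 Illumina libraries. The 5p to 3p ratio in the NEXTflex MIN6 library was 35.1 for Mir30a, 44.4 for Mir30b, 69.5 for Mir30c-2, 41.2 for Mir30e and 315 for Mir30c-1, and for Mir30d it was at least 103102. Each hairpin other than Mir30d thus lay between the TruSeq and the V1.5 means. With all starts summed the ratio of Mir30c-1 was 135 in the NEXTflex library, 101 to 118 in the TruSeq libraries and 543 to 730 in the V1.5 libraries.

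In liver, TruSeq and NEXTflex can be compared on the same RNA, with 1 library each. Of 177 named 5′ ends of at least 100 RPMM, 68.4% differed by more than 2-fold. These were lower with NEXTflex for 45.8% of the 177 and higher for 22.6%. Of the 8 miR-30 arms among them, 5 were more than 2-fold lower and 0 higher, but 2 of the 5, miR-30e-3p and miR-30c-2-3p, reached 100 RPMM only with TruSeq, where they are higher. The 3 arms that stayed under 100 RPMM include miR-30b-3p, at 8.25 RPMM with TruSeq and 17.1 RPMM with NEXTflex. miR-30b-5p fell from 866 to 268 RPMM (0.310 times), miR-30a-5p from 30218 to 10755 RPMM (0.356 times) and miR-30e-5p from 4403 to 2045 RPMM (0.465 times). miR-30c-5p was at 4113 and 3021 RPMM (0.735 times) and miR-30d-5p at 7898 and 7173 RPMM (0.908 times), so that the same pair of 5p arms as in MIN6 differed least from TruSeq. All of these ratios depend on what is counted as the library: reads on named miRNAs made up 48.6% of mapped reads in the TruSeq liver library and 83.3% in the NEXTflex one, and on that scale the log2 ratio was -2.27 for miR-30a-5p and -0.92 for miR-30d-5p. Their differences from each other are not affected by the scale.

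The 3p arms of liver differed between the protocols in the same unequal way. miR-30a-3p was at 325 RPMM with TruSeq and 294 with NEXTflex, while miR-30e-3p was at 177 and 62.1 RPMM and miR-30c-2-3p at 178 and 83.9 RPMM. miR-30c-1-3p was at 26.3 RPMM with TruSeq and had no read at its reference start with NEXTflex. At that start it was thus at least 126-fold higher with TruSeq, and the bound does not cover reads with other starts. The arm ratio of Mir30b was 105 with TruSeq and 15.7 with NEXTflex, and that of Mir30e 24.9 and 32.9.

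Liver and MIN6 were next compared within a protocol, as ratios after adding 1 RPMM. In bulk RNA, fewer cells of a type and less RNA per cell cannot be told apart, and the TruSeq libraries of liver and MIN6 also differ in instrument and, per the study's methods, in RNA extraction, a Norgen kit for liver and TRIzol at the NIH, where these MIN6 libraries were sequenced. None of these can be told apart from the tissue. miR-30a-5p was 3.32 times as high in liver as the MIN6 mean with TruSeq and 2.22 times as high with NEXTflex. Its 3p partner miR-30a-3p was 4.41 times as high with TruSeq and 2.12 times with NEXTflex, and miR-30c-2-3p, from the neighbouring hairpin on chromosome 1, 5.46 and 2.21 times. miR-30c-2-3p reached 100 RPMM only in the TruSeq liver library, where it is highest. miR-30d-3p was lower in liver, at 0.301 times the MIN6 level with TruSeq, and had no read within 5 nt of its start in either NEXTflex library. miR-30b-3p was at 0.416 times with TruSeq and 0.552 times with NEXTflex. Among 409 named 5′ ends of at least 100 RPMM in any library, 22.2% were more than 2-fold higher in liver with TruSeq and 18.3% with NEXTflex.

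miR-30b-5p and miR-30e-5p were lower in liver with both protocols. miR-30b-5p was at 0.384 times the MIN6 level with TruSeq and 0.190 times with NEXTflex, and miR-30e-5p at 0.422 and 0.358 times. More than 2-fold lower in liver were 60.1% of the 409 with TruSeq and 64.8% with NEXTflex. Most named 5′ ends come from the study's list of miRNAs of at least 100 RPMM in a MIN6 library. That list has 358 entries, and 56 more are listed for liver alone. This choice favours lower levels in liver, so that the shares of lower and higher 5′ ends are no neutral background. miR-30c-5p (0.875 and 0.582 times) and miR-30d-5p (0.807 and 0.593 times) differed by less than 2-fold. With reads on named miRNAs as the library size, the log2 ratio of liver to MIN6 with TruSeq turned above 0 for miR-30c-5p (0.36) and miR-30d-5p (0.24), and for miR-30b-5p and miR-30e-5p it was -0.83 and -0.69. The order of the 5p arms in liver was miR-30a-5p, miR-30d-5p, miR-30e-5p, miR-30c-5p and miR-30b-5p with TruSeq. With NEXTflex, miR-30c-5p came before miR-30e-5p.

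The reads also showed how the ends of the family members were recovered. The RefSeq entries of miR-30a-5p and miR-30e-5p are 22 nt long. With reads pooled over the 9 libraries, however, the commonest unedited read of each was 24 nt long, with the next bases of the hairpin at its 3′ end. These reads are printed with the bases beyond the RefSeq entry in capitals, since these are the ends that a 3′ adapter meets.
miR-30a-5p: uguaaacauccucgacuggaagCU
miR-30c-5p: uguaaacauccuacacucucagcU
miR-30e-5p: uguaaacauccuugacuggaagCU
With reads pooled over the 9 libraries the commonest length was also 24 nt for miR-30d-5p, and it was 22 nt for miR-30b-5p and for each of the 3p arms. In single libraries it could be shorter. miR-30d-5p was most often 23 nt long in each V1.5 library (38.9% to 40.0%) and in the NEXTflex liver library (31.0%). miR-30b-3p was 21 nt long in the NEXTflex liver library.

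The share of the 24 nt form differed between the protocols far more than between replicates. For miR-30e-5p it was 95.2%, 95.4% and 95.2% of unedited reads with TruSeq and 47.3%, 47.8% and 46.1% with V1.5, where a 23 nt form made up 43.3% to 45.3%. NEXTflex gave 64.3%. For miR-30c-5p the 24 nt form was at 95.4% ± 0.0760 (SD, n = 3) with TruSeq, 51.8% ± 0.461 with V1.5 and 72.5% with NEXTflex. For miR-30b-5p the 22 nt form was at 98.4% ± 0.169 with TruSeq, 67.1% ± 1.16 with V1.5, with most of the rest 1 nt shorter, and 93.4% with NEXTflex. In V1.5 the form 1 nt shorter was thus more frequent for each of these arms.

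miR-30a-5p and miR-30d-5p had a further form. With TruSeq, 13.1% to 16.6% of the unedited reads of miR-30a-5p in MIN6 and 27.9% in liver were 20 nt long. In the MIN6 libraries at most 2.21% were 21 nt and at most 1.13% were 22 nt long. The 20 nt form of miR-30d-5p made up 7.80% to 10.2% in MIN6 and 20.5% in liver with TruSeq. With V1.5 and NEXTflex the lengths of miR-30a-5p were spread over 22, 23 and 24 nt instead. The 24 nt form of miR-30a-5p made up 77.8% ± 2.00 of reads with TruSeq, 42.8% ± 1.21 with V1.5, 46.1% with NEXTflex in MIN6, and in liver 54.0% with TruSeq and 31.5% with NEXTflex. In liver, too, each 5p arm had a larger share of that length with TruSeq than with NEXTflex, from the same RNA.

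**Figure D4:**
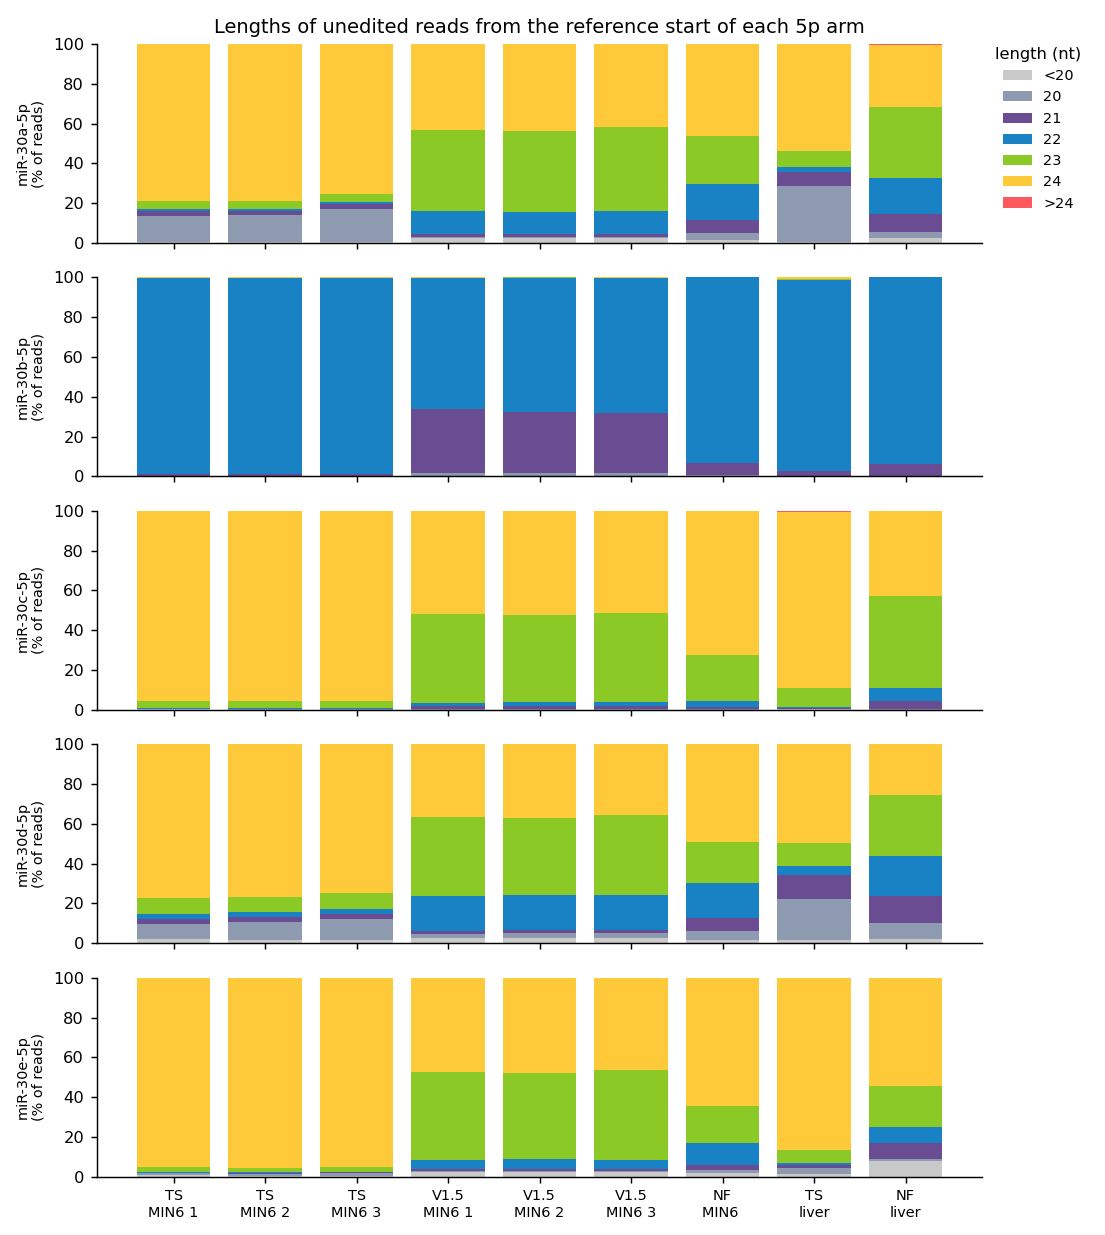
Stacked bars give the percentage of unedited reads of each length class (colours, in nt) among reads from the reference start of each 5p arm (rows) in the 9 libraries on the x axis (TS, TruSeq; NF, NEXTflex). The 24 nt class fills over 95% of the TruSeq MIN6 bars of miR-30c-5p and miR-30e-5p and 46.1% to 52.1% of the V1.5 bars, where most of the rest is the 23 nt class.

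In all, 66 shares were compared between V1.5 and TruSeq, 6 measures for each of the 11 arms, and 53 of them had groups that did not overlap. An exact two-sided permutation test of 3 against 3 cannot go below p = 0.1, which becomes 0.125 after Benjamini-Hochberg adjustment, so that none of the 66 can pass. The share of the commonest length was separated in 11 of 11 arms, lower with V1.5 in 10 and higher in miR-30c-2-3p (64.8% ± 4.41 with TruSeq, 93.2% ± 0.670 with V1.5). These shares do not depend on library size.

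Reads that matched for at least 20 bases and ended in 1 untemplated U or A were more frequent with V1.5 for most 5p arms. Those ending in 1 untemplated G were less frequent with V1.5 for each 5p arm. For miR-30b-5p they made up 0.424% to 0.552% with TruSeq and 0.00399% to 0.0128% with V1.5. Among miR-30e-5p reads, 4.38% ± 0.153 ended in 1 untemplated U with TruSeq and 7.32% ± 0.332 with V1.5, and NEXTflex gave 4.77%. Among miR-30a-5p reads the values were 2.70% ± 0.105, 5.28% ± 0.104 and 4.64%. miR-30d-5p went the other way, at 3.76% ± 0.0315 with TruSeq and 3.40% ± 0.108 with V1.5. An untemplated A followed 0.201% ± 0.0152 of miR-30e-5p reads with TruSeq and 0.513% ± 0.0421 with V1.5. In liver the A tail of miR-30e-5p was at 1.22% with TruSeq and 10.8% with NEXTflex, and that of miR-30b-5p at 0.763% and 11.9%. The other 5p arms differed less, with miR-30a-5p at 1.90% and 5.01%, miR-30d-5p at 4.06% and 7.77%, and miR-30c-5p at 0.961% and 1.01%. In the NEXTflex MIN6 library the A tail of miR-30b-5p was at 0%.

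Edited alignments with 1 mismatch inside the read, at least 3 bases from its end, set the NEXTflex libraries apart from the others. They made up 6.46% to 7.37% of the reads of the 5p arms in the NEXTflex MIN6 library and 6.34% to 7.62% in the NEXTflex liver library. In the TruSeq libraries of MIN6 and liver they made up 0.568% to 1.97%. V1.5 library 1 had 3.18% to 3.64%, against 0.833% to 1.04% in V1.5 libraries 2 and 3. With unedited alignments alone, the log2 change of miR-30e-5p between V1.5 and TruSeq was 0.07 (edgeR adjusted p = 0.346).

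The 5′ starts, which set the seed, were nearly uniform in the 5p arms. Starts within 5 nt other than the reference start made up 0% to 3.84% of the reads of any 5p arm in any library. The 3p arm of Mir30a was mixed, with 30.1% ± 1.03 shifted starts with TruSeq, 41.5% ± 0.950 with V1.5 and 30.5% with NEXTflex in MIN6, and 44.2% and 43.0% in liver. Nearly all of these started 1 nt further 3′, which moves the seed by 1 base. The largest shifted share was that of miR-30c-1-3p in the NEXTflex MIN6 library, 57.4%, where the TruSeq MIN6 libraries had 0% to 2.84% and the V1.5 libraries 10.2% to 22.5%. For miR-30d-3p the shifted share was 15.7% ± 0.250 with TruSeq and 35.2% ± 2.60 with V1.5. Summed over all starts, the 3p arms that had entered the fit, miR-30a-3p, miR-30d-3p and miR-30e-3p, kept the direction and the call of their changes between V1.5 and TruSeq.

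miR-30e-5p was then examined as a reference. For each of 251 named 5′ ends averaging at least 100 RPMM over the 3 MIN6 protocol means, the highest protocol mean was divided by the lowest, after adding 1 RPMM. Among these 5′ ends are shifted starts of some miRNAs and separate copies of others, so counts of them are not counts of distinct miRNAs. miR-30e-5p had a ratio of 2.04, from 11655 RPMM with V1.5 to 5723 RPMM with NEXTflex, and 23 of the 251 had a smaller one. Each of the other 5p arms had a smaller ratio over the 3 MIN6 protocols. It was 1.88 for miR-30a-5p, with 17 smaller, 1.60 for miR-30b-5p, with 8 smaller, 1.499 for miR-30d-5p, with 6 smaller, and 1.14 for miR-30c-5p, with 1 smaller. Between TruSeq and V1.5 alone the ratio of miR-30e-5p was 1.116, with 17 of 253 smaller, and only miR-30c-5p among the 5p arms, at 1.03, was below it. There miR-30b-5p was at 1.15, miR-30d-5p at 1.21 and miR-30a-5p at 1.70.

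miR-30c-5p was thus among the 3 steadiest miRNAs, with miR-455-3p at 1.13 and miR-433-3p at 1.15. These are much scarcer, at 278 to 314 and 137 to 158 RPMM, whereas miR-30c-5p was at 4544 to 5194 RPMM. By the coefficient of variation over the 7 MIN6 libraries, miR-30c-5p had the smallest value, 5.90%, and miR-30e-5p had 21.3%, with 12 smaller. The place of miR-30c-5p depended on the scaling: with TMM factors its ratio was 1.64 and 10 of 260 were smaller, while miR-30e-5p had 1.86 and 21 smaller. On that scale miR-30a-5p, at 2.49, and miR-30d-5p, at 2.15, had larger ratios than miR-30e-5p. With reads on named miRNAs as the library size, miR-30e-5p had 2.22 with 28 of 244 smaller, and miR-30a-5p, at 2.25, was slightly above it. By the coefficient of variation miR-30a-5p, at 30.5%, was also less steady than miR-30e-5p. In liver the steadiest arm between TruSeq and NEXTflex was miR-30d-5p, with a ratio of 1.10 and 7 of 147 smaller, and miR-30e-5p had 2.15 with 58 smaller. In liver miR-30c-5p was at 1.36, and miR-30a-5p, at 2.81, and miR-30b-5p, at 3.23, had larger ratios than miR-30e-5p.

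**Figure D5:**
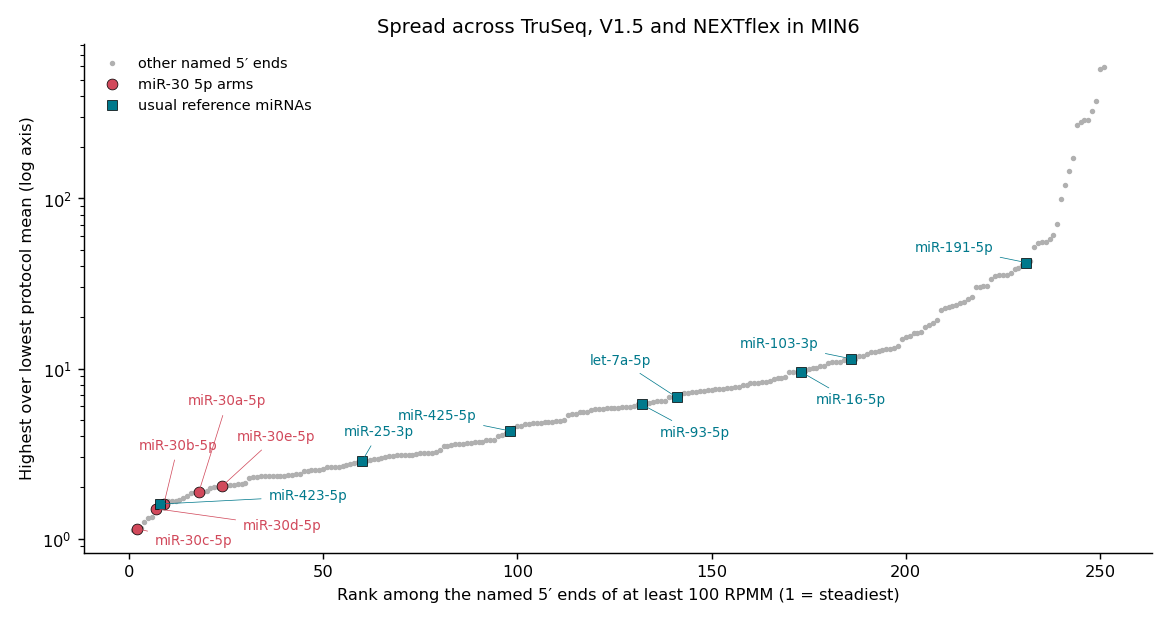
Each point is a named miRNA 5′ end of at least 100 RPMM, ranked on the x axis by the ratio of its highest to its lowest protocol mean in MIN6 (log y axis); circles mark the miR-30 5p arms and squares 8 miRNAs commonly used as references. The 5p arms lie between 1.14 and 2.04, and 7 of the 8 squares lie above them, up to 41.97 for miR-191-5p.

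Of 8 miRNAs often used as references, miR-423-5p, at 1.60, had a smaller ratio than miR-30e-5p in MIN6. The others ranged from 2.85 for miR-25-3p to 41.97 for miR-191-5p, which was at 21984 RPMM with TruSeq, 4528 with V1.5 and 523 with NEXTflex. miR-16-5p had a ratio of 9.57 and let-7a-5p of 6.78. In liver 6 of the 8 had a smaller ratio than miR-30e-5p, from 1.03 for miR-93-5p to 2.09 for miR-423-5p, while let-7a-5p, at 4.14, and miR-191-5p, at 43.9, had larger ones. The sum of the 5p arms, at 1.24, was steadier than miR-30e-5p in MIN6, and in liver the sum differed by 2.04-fold.

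What the choice of reference changes was seen in the 5 miRNAs of the study's RT-qPCR. miR-24-3p, at 0.0780 ± 0.00613 (SD, n = 3) times miR-30e-5p with TruSeq, was at 2.50 ± 0.271 times with V1.5 and 0.897 times with NEXTflex, a range of 32.02-fold that became 36.9-fold relative to miR-30c-5p. For miR-27b-3p the range was 16.9-fold relative to miR-30e-5p and 33.9-fold relative to miR-30c-5p. These differences are larger than any between the 5p arms, and the order of the protocols was the same with either reference.

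For the other 3 miRNAs the order of V1.5 and NEXTflex turned between miR-30e-5p and miR-30c-5p as the reference, but not with every arm. Relative to miR-30b-5p, NEXTflex stayed above V1.5 for miR-375-3p (1.12 times) and miR-129-5p (1.27 times). Relative to miR-30a-5p it did so for miR-129-5p (1.02 times). In the remaining cases with miR-30a-5p, miR-30b-5p or miR-30d-5p as the reference, NEXTflex was below V1.5. miR-375-3p, a beta cell miRNA, was at 6.87 ± 0.317 times miR-30e-5p with V1.5 and 11.3 times with NEXTflex, but at 17.7 ± 1.98 times miR-30c-5p with V1.5 and 12.5 times with NEXTflex. miR-129-5p was at 0.155 ± 0.00313 times miR-30e-5p with V1.5 and 0.291 times with NEXTflex, and at 0.399 ± 0.0242 and 0.320 times miR-30c-5p. miR-29a-3p was at 0.888 ± 0.0574 times miR-30e-5p with V1.5 and 1.15 times with NEXTflex, and at 2.27 ± 0.00410 and 1.27 times miR-30c-5p. Per mapped read these 3 miRNAs were lower with NEXTflex than with V1.5, at 0.810, 0.919 and 0.637 times. miR-30c-5p was singled out as steady on this same scale. A ratio to it is therefore bound to follow the order per mapped read, which is no separate support. The NEXTflex values rest on 1 library, and no test was made.

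Likeness of pattern was measured over the 9 libraries as the root mean square difference of log2(RPMM + 1) after centring, among 258 named 5′ ends of at least 100 RPMM on average. The 3 most like miR-30e-5p were miR-30b-5p at 0.28, the form of miR-30e-5p that starts 1 nt further 3′ at 0.38, and miR-423-5p at 0.41, where the median over all was 2.05. miR-30c-5p and miR-30d-5p were each other's nearest, at 0.16. miR-30a-5p, although it differs from miR-30e-5p by 1 base, was at 1.38 from it and ranked 64 in likeness to it. These points share their libraries, and the values describe 9 libraries of 1 cell line and 1 tissue.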

How the data were processed

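Small RNA reads of 9 libraries (groups from the sample labels) were trimmed with cutadapt (minimum overlap 10, error rate 0.1 for the Illumina kits; 4 bases also removed from each end of NEXTflex reads) and mapped to mm9 with Bowtie by the authors, who deposited alignments with an expected count, a multi-mapping read being divided evenly; versions were not given in the sources used here. The members and gene lists were chosen with earlier results of these data known. Alignments carry no names, so a 5′ end was named where its reads per 1000000 mapped reads (RPMM) equalled the study's tables in every library (a table value of 0 was allowed up to 5 RPMM); all 8 miR-30 entries listed for both tissues matched in liver, miR-30c-1-3p was placed by the RefSeq distance between its arms, and miR-30b-3p, for which no RefSeq entry was matched, at the most abundant 5′ end downstream of miR-30b-5p, so that its start was read from the alignments themselves. The study's mapped-read totals were the library sizes; deposited counts exceeded them by 0.264% to 8.41%. Sequences and positions come from RefSeq and GENCODE on GRCm38, and no coordinate was converted.

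Rounded counts of named 5′ ends of at least 100 RPMM in a MIN6 library were tested with edgeR 4.0.16 (quasi-likelihood), arm ratios with limma 3.58.1, and shares with exact permutation tests (scipy 1.17.1), to which the share of the commonest length was added after the lengths had been seen; scripts were first checked on simulated data. Alternatives were TMM and DESeq2 1.42.0 scaling, the DESeq2 Wald test, reads on named miRNAs as library size, other filters, summed starts, unedited alignments, a replicate block and leaving out each library. Single libraries were compared by ratios after adding 1 RPMM. Named were all members, the 3 steadiest miRNAs, the 3 most like miR-30e-5p, the RT-qPCR miRNAs and usual references. TruSeq libraries of MIN6 from the HiSeq instrument were not analysed here. Replicates are called biological in the study; the labels give no separate cultures, so p-values measure the spread between these libraries. No pair of replicates agreed within sampling noise (chi-square per degree of freedom 29.4 to 102).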

Additional observations from a re-analysis of the deposited data

Results flagged for a closer look

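Values of 6 arms moved in opposite directions under the same contrast in every library compared. The differences were not tested, since each rests on single NEXTflex or liver libraries, and the MIN6 comparison of NEXTflex with TruSeq also crosses RNA, instrument, facility and date. Against TruSeq, the NEXTflex level was higher in MIN6 and lower in liver for miR-30c-5p (1.11 and 0.735 times, a difference of 0.59 in log2 ratio), miR-30d-5p (1.24 and 0.908 times, 0.44), miR-30a-3p (1.88 and 0.905 times, 1.06) and miR-30c-2-3p (1.17 and 0.475 times, 1.30). With reads on named miRNAs as the library size, the log2 ratios of miR-30c-5p and miR-30c-2-3p in MIN6 were -0.12 and -0.03, so that their directions no longer differed. Liver was above MIN6 with TruSeq and below it with NEXTflex for miR-30e-3p (1.119 and 0.451 times, a difference of 1.31 in log2 ratio) and for miR-30c-1-3p (1.23 times with TruSeq). miR-30c-1-3p had no read at its reference start in the NEXTflex liver library. Its difference of 3.51 in log2 ratio is therefore set by the 1 RPMM added and is no estimate. With 3 reads as the floor, miR-30c-1-3p was at least 39.6-fold higher at that start in MIN6 than in liver with NEXTflex.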

How the results depend on the processing

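The log2 changes of miR-30 arms between V1.5 and TruSeq kept direction and call in 105 of the values recomputed, and the exceptions concern miR-30c-5p and miR-30e-5p. miR-30e-5p reversed with TMM factors (-0.39), DESeq2 size factors (-0.48) and the DESeq2 Wald test (-0.48), and lost its call with reads on named miRNAs as library size (0.02) or unedited alignments (0.07), with adjusted p over its alternatives from 1.03e-10 (DESeq2 Wald test) to 0.672. miR-30c-5p gained a call with TMM factors (-0.60), both DESeq2 settings (-0.68) and reads on named miRNAs (-0.18). The scaling shifts the median of all miRNAs, as given in the report. All 75 alternatives of the arm ratios kept direction and call. The number of called 5′ ends was 314 to 323 without 1 library, and fell to 115 of 120 at a mean of 500 RPMM, where fewer are tested. Without 1 library, 53 to 54 hairpins were called and 54 to 56 shares had groups that did not overlap. The number of named 5′ ends steadier than miR-30e-5p was 12 by coefficient of variation and 58 in liver, and 21 to 25 without 1 library. Leaving out libraries for this number and for the shares was chosen after seeing the data. Named 5′ ends over 2-fold between NEXTflex and TruSeq in liver numbered 80 with all starts summed, where fewer ends are listed. The cause of the other changes was not tested.

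Replicate numbers are shared by TruSeq and V1.5, but the deviations of same-numbered libraries correlated at 0.096, 0.187 and 0.192, not all above 0.1, so the numbers were not taken as pairs, although each library correlated best with its own number. With a replicate block 330 named 5′ ends and 54 hairpins were called, and miR-30e-5p kept its call (adjusted p = 0.00336 by edgeR). Single NEXTflex and liver libraries limit every value that rests on them.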
